A study of Mus musculus with 11 samples.

Results

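The genes of double knockout (dKO) mouse testis were compared with those of wild-type (WT) testis at postnatal day 5 (P5). The comparison takes 5 of the 11 RNA-seq libraries of the series, 3 of dKO and 2 of WT, selected by the genotype in their labels and held in a single deposited table of counts with 30993 genes and 1077 transposable element (TE) subfamilies. The dKO animals carried Dnmt3C KO/KO, a constitutive deletion, together with Nrf1 KO/KO, which was produced from a floxed Nrf1 allele and a null allele by Ddx4-Cre (Vasa-Cre), a driver active in germ cells. WT libraries came from littermates where the breeding allowed, and the mice had a C57BL/6 background. The remaining libraries, 3 of Dnmt3C KO/KO (Dnmt3C KO) and 3 of Nrf1 KO/KO made with the same Cre (Nrf1 cKO), are used below only to set values side by side. The Cre deletes Nrf1 in germ cells alone, whereas RNA was extracted from the whole testis, so every value is a level over germ and somatic cells together.

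DNMT3C is a rodent DNA methyltransferase that methylates the promoters of evolutionarily young retrotransposons in fetal male germ cells, and without it these elements are transcribed and spermatocytes arrest. NRF1 is a transcription factor that binds a GC-rich palindrome in CpG-island promoters and is blocked by methylation of its site. It is known for activating nuclear genes of mitochondrial function and, in germ cells, genes that spermatogonia need. At P5 the tubules hold spermatogonia and dividing Sertoli cells, and no meiotic cells have yet appeared in number.

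The library totals lay between 32567168 and 34643172 counts in dKO and were 35848650 and 33367389 in WT. Values below are CPM, the counts of a gene scaled to library size with TMM factors, and log2 fold changes are dKO over WT with their standard error (SE). The sample titles name germ cells, but somatic markers prevailed: the 20 Sertoli cell markers summed to between 6546 and 8543 CPM and the 20 germ cell markers to between 216 and 553 CPM. WT replicate 2 stood apart. Its red blood cell markers summed to 2191 CPM, against 663 in WT replicate 1 and 427, 263 and 791 in dKO, and the class II histocompatibility gene H2-Aa was at 87.8 CPM there and at 2.23 to 7.07 in the other 4 libraries. Labels do not say whether replicates came from separate litters, so p-values measure the spread between these libraries.

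The targeted genes did not separate the genotypes. Nrf1 (ENSMUSG00000058440.14, GRCm38 chromosome 6, 30047988 to 30153458) was at 57.2, 61.0 and 60.9 CPM in dKO and 57.3 and 58.3 in WT, a log2 fold change of 0.05 ± 0.15 (SE). Dnmt3c (ENSMUSG00000082079.2, chromosome 2, 153696652 to 153729907) was at 4.30, 4.96 and 3.55 CPM in dKO and 4.18 and 4.90 in WT. Counts over whole genes do not check a deletion of some exons. For Nrf1 the Cre also acts only in germ cells, a minor cell population here, while the null allele is not limited to them.

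No gene passed an adjusted p under 0.01. Of 20602 genes tested with edgeR's quasi-likelihood test, with Benjamini-Hochberg adjustment over all rows tested, 0 were called higher and 0 lower (0%), and the smallest adjusted p was 0.9996 with 3 residual degrees of freedom. At an unadjusted p under 0.05 the dKO level was higher for 110 genes (0.534%) and lower for 243 genes (1.18%). DESeq2's Wald test on the same counts called 1 gene higher, Plbd1, and 0 lower. The groups did not overlap for 1346 genes with all 3 dKO libraries above both WT libraries (6.53%) and for 1307 genes with all 3 below (6.34%), and 52.2% of genes had a log2 fold change above 0. All gene values that follow are therefore levels in these libraries and not calls. These shares are the background for the counts of each list below. The genes at an unadjusted p under 0.05 changed when a library was left out. A fit without a WT library has 1 WT sample, which is assumed to vary like the dKO libraries, so its p-values rest on the dKO spread alone, here and in the lists below. Without WT replicate 2, 129 genes were higher (0.597%) and 150 lower (0.694%), of which 37 were among the 110 and 53 among the 243. Without WT replicate 1, 678 were higher (3.12%) and 442 lower (2.04%), so that higher genes outnumbered lower ones, and 51 and 128 of the original genes were among them. Without dKO replicate 1, 2 or 3 the lower genes numbered 404 (2.02%), 286 (1.41%) and 333 (1.64%) and the higher ones 81 (0.404%), 137 (0.677%) and 110 (0.541%), and 44 to 62 of the 110 and 144 to 157 of the 243 were found again. Counts given below without a library are to be read against these shares.

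**Figure D1:**
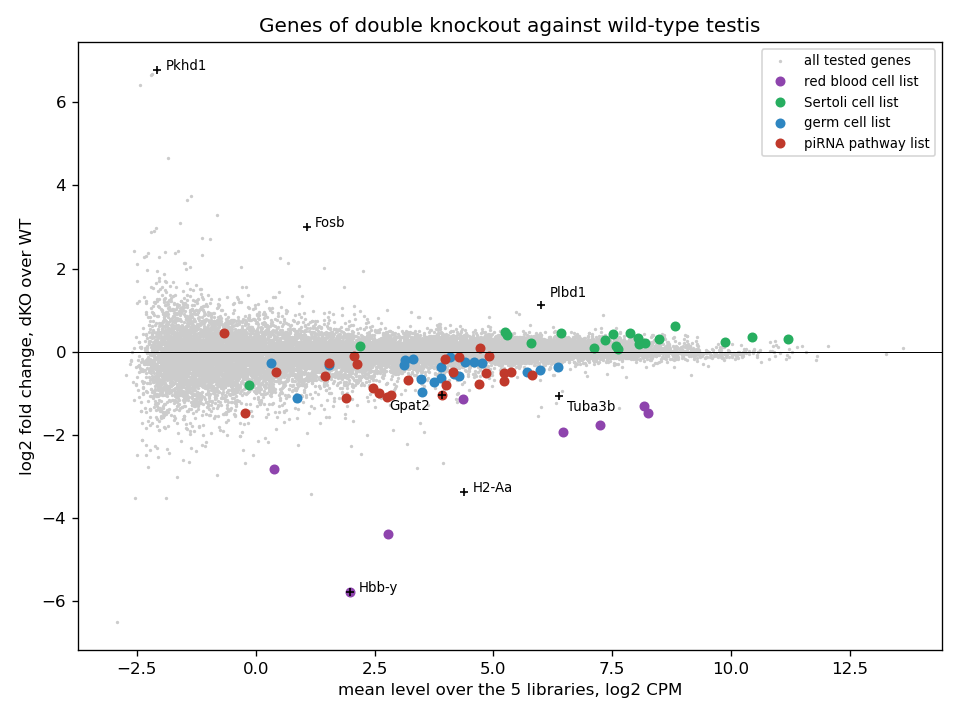
Mean level of each tested gene over the 5 libraries (log2 CPM, horizontal) against its log2 fold change, dKO over WT (vertical), with 4 gene lists in colour and 7 genes marked by a cross. The piRNA pathway and germ cell lists lie mostly below 0, the Sertoli cell list mostly above 0, and the red blood cell list far below 0, where its values come from WT replicate 2.

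Transcripts of germ cells were lower in dKO on balance, and those of dKO replicate 3 lowest. All 20 germ cell markers had a log2 fold change below 0, with a median of -0.36 against 0.01 over all genes. Of these, 1 was lower at an unadjusted p under 0.05 (1.18% of all genes) and 5 did not overlap between the groups (6.34% of all genes). Summed over the list, dKO had 506, 401 and 216 CPM and WT 553 and 445, so the groups overlapped. With 1 library left out, between 14 and 20 were below 0. The median ran from -0.67 without dKO replicate 1, where 8 were lower at that threshold, to -0.09 without dKO replicate 3, where 1 was. The number lower was 5 without dKO replicate 2, 4 without WT replicate 2 and 0 by edgeR without WT replicate 1, where 15 were below 0. In whole testis, fewer germ cells and less RNA per germ cell cannot be told apart.

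Ddx4, which encodes the VASA RNA helicase of germ cells, was at 55.7, 52.5 and 27.2 CPM in dKO and 66.0 and 61.1 in WT, a log2 fold change of -0.49 ± 0.27 (SE; edgeR unadjusted p = 0.0991). Every dKO library lay below both WT libraries, and the first 2 dKO libraries lay close to WT. Dazl, an RNA-binding protein that licenses germ cells for gametogenesis, was at 120, 68.3 and 33.3 CPM in dKO and 91.7 and 98.0 in WT. Its dKO values lay on either side of WT. Sohlh2, a transcription factor of differentiating spermatogonia, was at 11.9, 8.21 and 4.65 CPM in dKO and 16.8 and 15.4 in WT, with a log2 fold change of -0.96 ± 0.33 (SE; edgeR unadjusted p = 0.0167). Its partner Sohlh1 had 12.4, 9.91 and 5.17 CPM in dKO and 15.5 and 13.2 in WT. For both SOHLH genes the groups did not overlap.

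Among 23 genes of undifferentiated spermatogonia, 17 were below 0, with a median of -0.47, and 2 were lower at an unadjusted p under 0.05 (1.18% of all genes). This balance depended on single libraries: without WT replicate 1, 12 were below 0 with a median of -0.06, and without dKO replicate 2, 11 were lower at that threshold (1.41% of all genes in that fit) with a median of -0.90. Pou5f1, the pluripotency factor OCT4 that stays on in gonocytes and early spermatogonia, was at 5.46, 9.42 and 4.68 CPM in dKO and 11.4 and 13.1 in WT (log2 fold change -0.91 ± 0.31, SE). Ret, the receptor through which GDNF maintains spermatogonial stem cells, was at 9.71, 28.9 and 11.2 CPM in dKO and 35.3 and 27.4 in WT. The second dKO library lay within the WT values for Ret, and the other two lay below both WT libraries. Lin28a, an RNA-binding protein of undifferentiated spermatogonia, was at 10.9, 14.8 and 6.21 CPM in dKO and 22.4 and 12.7 in WT. Lists here share members, such as Sohlh2, Sall4, Lin28a and Rhox13, so their counts are not independent. Sohlh2 is also the 1 germ cell marker counted as lower above. The 12 genes of differentiating spermatogonia had a median of -0.15, with 9 below 0 and 1, Sohlh2, lower at an unadjusted p under 0.05 (1.18% of all genes). Their direction was not stable, since the median was 0.08 without WT replicate 1, with 8 above 0, and 0.02 without dKO replicate 3, with 6 above 0. Rhox13, a homeobox gene of differentiating spermatogonia, was at 2.21, 1.33 and 0.214 CPM in dKO and 2.96 and 2.48 in WT.

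Most genes of the piRNA pathway had lower values in dKO. piRNAs are small RNAs that, bound to PIWI proteins, silence retrotransposons in the germline. Of its 26 genes, 24 were below 0, with a median of -0.54. At an unadjusted p under 0.05, 6 were lower (1.18% of all genes) and 0 higher (0.534% of all genes), and for 11 the dKO libraries lay below both WT libraries (6.34% of all genes). Without dKO replicate 3, 21 of 26 were below 0, 2 were lower at that threshold and the median was -0.33. The number of lower genes was 15 without dKO replicate 1 (2.02% of all genes in that fit) and 1 without WT replicate 1 (2.04%), where 20 were below 0 with a median of -0.53. In the fit of all 4 genotypes 0 were lower by edgeR (1.13% of all genes), with 24 below 0 and a median of -0.54. Germ cell markers moved with this list. With scaling factors that made the germ cell markers equal across libraries, 0 were lower by edgeR (0.204% of all genes), 16 of 26 were below 0 and the median was -0.08, against 0.62 over all genes.

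The promoters of this list are shown because a larger share of them held a motif of the NRF1 type than in any other list examined here. In RefSeq promoters of GRCm38.p6, which run from 250 bases before to 50 bases after a start, the letters GCGC, any 2 bases and again GCGC were searched, so that a match on one strand is a match on both. It was found for 11 of the 19 piRNA pathway genes matched by symbol (57.9%), for 7 of 22 genes of DNA and H3K9 methylation (31.8%), for 7 of 24 meiotic genes (29.2%), for 18 of 68 nuclear genes of oxidative phosphorylation (26.5%), for 1 of 16 germ cell markers (6.25%) and for 1705 of all 13085 tested genes with a promoter (13.03%). The narrower form with A and T at its centre, a full palindrome whose matches are also counted above, was found for 2 of the 19, Gpat2 and Tex19.1, and for 1.97% of all. The 12 sites of the 11 genes, 2 of them in Asz1, with 10 bases on either side and the motif in capitals, are given 5′ to 3′ on the strand of the gene. In 10 of the 11 genes the sites begin between 21 and 175 bases before the start, and in Tdrd1 it lies after the start.
Asz1: gagccgctctGCGCCTGCGCcagaggtccc
Asz1: gaggtcccagGCGCTTGCGCaaggccacgc
Exd1: gccgcgccctGCGCAGGCGCtaacgtcaaa
Gpat2: agctgctgagGCGCATGCGCagagcccagt
Henmt1: agggcgcagaGCGCAGGCGCgaggcgcagg
Mov10l1: tgacaggcagGCGCAGGCGCagatgcaaga
Piwil4: cgcccatcatGCGCCTGCGCattctggggg
Pld6: cgtgttgggcGCGCAAGCGCttggtgctac
Tdrd1: ggagtaaactGCGCAGGCGCgggccccgca
Tdrd5: ggcccgcagtGCGCAGGCGCgcgagaccct
Tdrd7: aggacggcgtGCGCACGCGCagaaaccgct
Tex19.1: caagggagcaGCGCATGCGCgctgtagggg

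The 11 piRNA genes with the motif had a median log2 fold change of -0.67 and the 8 without it -0.79, and all 19 were below 0. All dKO libraries lay below WT for 5 of the 11 and 6 of the 8, against 6.04% of all tested genes with the motif and 5.44% of those without it. Over all tested genes, the medians were 0.02 for the 1705 genes with the motif and 0.03 for the 11380 without it.

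Gpat2, a mitochondrial acyltransferase homologue that takes part in primary piRNA processing, had the smallest p of the list. It was at 14.97, 11 and 6.03 CPM in dKO and 23.3 and 20.7 in WT, a log2 fold change of -1.05 ± 0.32 (SE; edgeR unadjusted p = 0.0086). All dKO libraries were below both WT libraries, and dKO replicate 3 was lowest. Its RefSeq promoter before the start (GRCm38.p6, plus strand, chr2:127424949-127425198), with the palindrome in capitals, reads as follows.
Gpat2: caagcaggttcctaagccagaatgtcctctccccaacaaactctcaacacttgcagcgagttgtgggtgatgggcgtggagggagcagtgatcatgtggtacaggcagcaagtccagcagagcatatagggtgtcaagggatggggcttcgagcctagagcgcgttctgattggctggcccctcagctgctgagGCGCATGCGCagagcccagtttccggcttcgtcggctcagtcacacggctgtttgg

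Tex19.1, a mammalian germline protein that restrains retrotransposons, was at 26.6, 28.8 and 18.0 CPM in dKO and 37.3 and 32.6 in WT (log2 fold change -0.51 ± 0.21, SE). The groups did not overlap. The dKO values had a standard deviation of 5.7 CPM around a mean of 24.5, against 4.48 around 10.7 for Gpat2, so they were closer only relative to their mean. The corresponding promoter (GRCm38.p6, plus strand, chr11:121145893-121146142) holds the same strict palindrome, farther from the start.
Tex19.1: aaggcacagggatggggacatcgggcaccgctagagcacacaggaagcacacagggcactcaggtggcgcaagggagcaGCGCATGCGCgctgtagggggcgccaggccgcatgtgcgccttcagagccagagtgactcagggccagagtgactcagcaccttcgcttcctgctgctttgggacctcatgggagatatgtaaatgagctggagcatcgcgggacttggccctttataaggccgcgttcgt

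The other 4 genes of the pathway at an unadjusted p under 0.05 were Tdrd5, Tdrd9, Mael and Mov10l1. Tdrd5, a Tudor protein of germ granules, was at 8.83, 8.21 and 5.20 CPM in dKO and 12.0 and 11.5 in WT. Tdrd9, a Tudor helicase that acts with MIWI2, was at 5.18, 7.62 and 2.33 CPM in dKO and 12.1 and 8.58 in WT. Mael, a conserved component of piRNA-guided silencing, was at 42.5, 28.8 and 17.6 CPM in dKO and 45.6 and 51.4 in WT. Mov10l1, the helicase that feeds precursors into the pathway, was at 29.5, 21.0 and 10.9 CPM in dKO and 37.3 and 32.2 in WT. In each of these genes all dKO libraries lay below WT. Piwil4, which encodes the nuclear PIWI protein MIWI2, was at 4.16, 2.63 and 0.765 CPM in dKO and 5.53 and 5.44 in WT (log2 fold change -1.12 ± 0.54, SE), without overlap and with a wide spread over the dKO libraries, so that the fold change was -1.70 without dKO replicate 1 and -0.69 without dKO replicate 3.

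Of 29 genes of the meiotic chromosome axis, synapsis and recombination, 24 were below 0 with a median of -0.32. Of these, 3 were lower at an unadjusted p under 0.05 (1.18% of all genes), and 8 did not overlap (6.34% of all genes). Without dKO replicate 1, 10 were lower (2.02% of all genes in that fit) with a median of -0.51, and without dKO replicate 3, 1 was lower (1.64%) with a median of -0.15. Mei1, needed for meiotic double-strand breaks, was at 1.90, 0.775 and 0.734 CPM in dKO and 3.09 and 2.78 in WT, a log2 fold change of -1.36 ± 0.46 (SE), which was -1.96 without dKO replicate 1. Syce3, a central element protein of the synaptonemal complex, was at 2.35, 1.74 and 1.19 CPM in dKO and 2.41 and 4.71 in WT. Hormad1, an axis protein, was at 1.73, 1.39 and 0.979 CPM in dKO and 2.06 and 2.93 in WT. WT replicate 2 set much of the difference for Syce3, whose first dKO library was level with WT replicate 1. Rec114, a partner of MEI4 in break formation, was at 4.44, 3.16 and 2.45 CPM in dKO and 5.07 and 5.71 in WT.

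**Figure D2:**
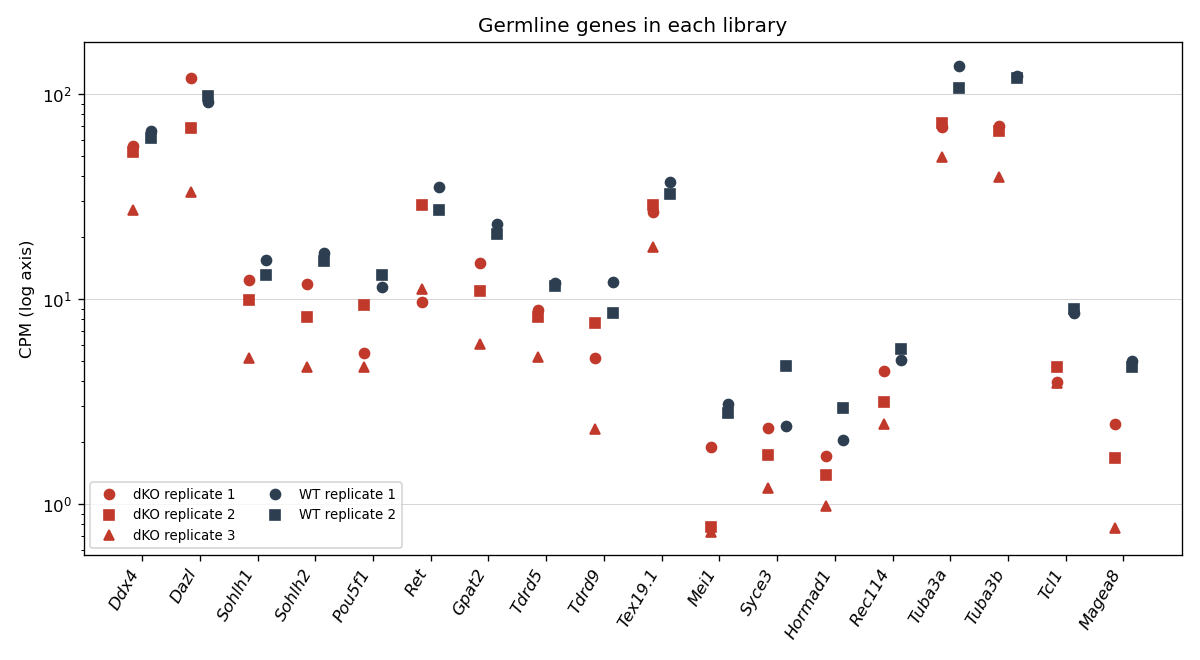
CPM (log axis) of 18 germline genes in each of the 3 dKO libraries (red) and 2 WT libraries (dark), with the symbol giving the replicate. dKO replicate 3 is the lowest library for most of the genes, and dKO replicate 1 lies above WT for Dazl.

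The 15 genes with the smallest p among the lower ones, leaving out predicted and clone-named genes, fell into germline genes, blood and immune genes, and others. Tuba3a (ENSMUSG00000067702.5) and Tuba3b (ENSMUSG00000067338.6) are a pair of testis alpha-tubulin genes whose near-identical coding sequences can share reads, so they are not independent measurements. Tuba3a was at 69.1, 72.6 and 49.6 CPM in dKO and 138 and 107 in WT, a log2 fold change of -0.94 ± 0.20 (SE; edgeR unadjusted p = 0.00113, adjusted p = 0.9996). Tuba3b was at 69.6, 65.8 and 39.5 CPM in dKO and 122.9 and 120 in WT, a log2 fold change of -1.06 ± 0.23 (SE). For both, every dKO library was below both WT libraries, and dKO replicate 3 was lowest. Tcl1, an AKT coactivator of germ cells and early embryos, was at 3.93, 4.68 and 3.89 CPM in dKO and 8.59 and 8.98 in WT (log2 fold change -1.08 ± 0.24, SE). Its replicates lay close together in both groups. Magea8, a member of the X-linked MAGE family, was at 2.46, 1.67 and 0.765 CPM in dKO and 4.99 and 4.65 in WT.

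Ccnd1, the G1 cyclin D1, was at 20.3, 21.0 and 18.9 CPM in dKO and 34.2 and 27.04 in WT (log2 fold change -0.61 ± 0.17, SE). Ccdc136 was at 20.5, 17.8 and 17.1 CPM in dKO and 28.8 and 26.5 in WT. Its start lies 0.652 Mb from that of Nrf1 on chromosome 6. Il1r2, the decoy receptor for interleukin 1, was at 0.509, 0.744 and 0.704 CPM in dKO and 1.63 and 2.24 in WT. Mmp8, the neutrophil collagenase, was at 0.0566, 0.186 and 0.0918 CPM in dKO and 0.515 and 0.876 in WT. Stfa3, a stefin of myeloid cells, was at 0.113, 0 and 0.0306 CPM in dKO and 0.325 and 0.876 in WT. For these 3 leukocyte genes all values were under 3 CPM, and Mmp8 and Stfa3 rested on few reads in dKO. Slc39a4, a zinc importer, was at 0.368, 0.527 and 0.337 CPM in dKO and 1.00 and 1.72 in WT.

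The other 5 leading lower genes were highest in WT replicate 2. All 8 tested red blood cell genes were lower at an unadjusted p under 0.05 (1.18% of all genes), with a median of -1.85, and without WT replicate 2, with 1 WT sample, none of the 8 passed and the median was -0.36. Hbb-bt, an adult beta-globin, was at 46.2, 25.4 and 53.5 CPM in dKO and 61.3 and 257 in WT. Hba-a2, an alpha-globin, was at 74.6, 49.0 and 108 CPM in dKO and 118 and 408 in WT. Slc4a1, the red cell anion exchanger, was at 0.764, 0.310 and 1.26 CPM in dKO and 1.00 and 31.3 in WT, and the embryonic globin Hbb-y was above 1 CPM only in WT replicate 2, at 19.2. H2-Aa, given above, had a log2 fold change of -3.38 ± 0.95 (SE), which was 0.35 without WT replicate 2. In all 5, WT replicate 1 was far nearer to dKO than to WT replicate 2.

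Among the genes with the smallest p on the higher side, Plbd1 was the most abundant to show a difference of over 2-fold. Plbd1 (ENSMUSG00000030214.7), a lysosomal phospholipase B-like protein, was at 95.8, 75.3 and 74.6 CPM in dKO and 44.8 and 30.3 in WT. Its log2 fold change was 1.12 ± 0.21 (SE; edgeR unadjusted p = 0.000455, adjusted p = 0.9996), and with DESeq2 the adjusted p was 0.00553. All 3 dKO libraries were above both WT libraries. Clec12b, an inhibitory lectin receptor, was at 79.4, 40.7 and 46.2 CPM in dKO and 35.4 and 21.6 in WT. Aass, the first enzyme of lysine breakdown, was at 17.8, 19.4 and 22.7 CPM in dKO and 13.7 and 12.1 in WT. Lars2, the mitochondrial leucyl-tRNA synthetase, was at 156, 165 and 209 CPM in dKO and 121 and 116 in WT, and Prrg2, a vitamin K-dependent transmembrane protein, at 27.7, 31.6 and 34.1 CPM and 23.5 and 18.9 CPM. These 4 differences were under 2-fold, and none of the groups overlapped.

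Several of the leading higher genes were almost silent in WT. Pkhd1, the polycystic kidney gene encoding fibrocystin, had 0 counts in both WT libraries and 0.453, 0.434 and 0.306 CPM in dKO, at least 4.62-fold higher when WT is set at 3 counts per library. DXBay18, an X-linked locus, also had 0 counts in WT and 0.283, 0.310 and 0.337 CPM in dKO, at least 3.60-fold higher. Gabrr1, a GABA receptor subunit, had 3 counts over the WT libraries and 62 over dKO, a ratio of 14.4 with a 95% exact counting interval from 4.71 to 71.8. Apoh, an apolipoprotein of liver, had 1 count in WT and 0.707, 0.527 and 0.122 CPM in dKO, a ratio of 32.1 with an interval from 5.48 to 1295. That count was in WT replicate 2, and the fitted log2 fold change, which depends on the prior count, ran from 3.74 without WT replicate 1 to 6.97 without WT replicate 2. For these 4 genes every dKO library was above WT, at levels of under 1 CPM.

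Spag16, which encodes a protein of the sperm axoneme, was at 3.37, 2.08 and 0.857 CPM in dKO and 0.271 and 0.604 in WT, a log2 fold change of 2.26 ± 0.65 (SE) that ran from 1.73 without dKO replicate 1 to 2.94 without WT replicate 2. BC051019 was at 2.94, 2.54 and 1.499 CPM in dKO and 0.163 and 0.907 in WT, with a log2 fold change from 1.35 to 3.81 when 1 library was left out. Zfp773, a zinc finger gene, was at 6.20, 6.01 and 4.90 CPM in dKO and 3.15 and 2.60 in WT (log2 fold change 0.99 ± 0.28, SE). Rhbdl2, a rhomboid protease, had 12, 17 and 22 counts in dKO and 4 and 0 in WT, so that its log2 fold change of 3.11 ± 0.98 (SE) ran from 2.21 without WT replicate 2 to 7.10 without WT replicate 1, where it depends on the prior count. Rn7s2, a 7SL RNA gene whose copies share reads, had a log2 fold change of 1.57 ± 0.41 (SE). Rn7s1, another 7SL RNA gene, went the other way, with 0, 24 and 25 counts in dKO and 91 and 67 in WT. Fosb, an immediate early transcription factor, was at 0.679, 1.86 and 7.19 CPM in dKO and 0.434 and 0.363 in WT, so dKO replicate 3 carried most of its difference. Of the 14 immediate early and heat shock genes, 12 were above 0 and 1, Fosb, was higher at an unadjusted p under 0.05 (0.534% of all genes), with a median of 0.20. Without WT replicate 1, 6 were higher (3.12% of all genes in that fit) with a median of 0.51, and without WT replicate 2, 8 were above 0 with a median of 0.06.

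Of the 30 leading genes, 6 lay on chromosome 6, which holds Nrf1 (20%, against 4.99% of all tested genes with a position). They are Plbd1, Aass, Clec12b, Tuba3a, Tuba3b and Ccdc136, with both directions among them. Tuba3a and Tuba3b, which can share reads, start 95.2 and 115.6 Mb from Nrf1, Clec12b 99.3 Mb and Plbd1 106.6 Mb. Within 20 Mb of Nrf1 lay 2 of the 30 leading genes, Aass and Ccdc136 (6.67%, against 1.13% of all). None of the 30 lay on chromosome 2 with Dnmt3c, which holds 7.61% of all. Over the 352 genes at an unadjusted p under 0.05 with a position, 29 were on chromosome 6 (8.24%) and 6 within 20 Mb of Nrf1 (1.71%). None of the 14 leading higher genes and none of the 12 leading lower genes with a RefSeq promoter held the motif.

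The leading genes differed in how the single mutants stood. Levels in this paragraph are CPM from 1 fit of all 11 libraries, where the adjusted p is edgeR's quasi-likelihood test over genes and TE subfamilies. Tuba3a was at 138, 121 and 137 CPM in Dnmt3C KO and 51.9, 46.8 and 35.5 in Nrf1 cKO, beside 68.7, 72.4 and 49.5 in dKO and 137 and 106 in WT. The dKO libraries thus lay below all Dnmt3C KO libraries, with a log2 fold change of -1.06 ± 0.25 (SE; adjusted p = 0.498), and the 2 kinds of library that lack Nrf1 in germ cells held the lowest values. Gpat2 was at 32.7, 23.2 and 24.2 CPM in Dnmt3C KO and 22.3, 4.19 and 5.11 in Nrf1 cKO, and its dKO over Dnmt3C KO difference was -1.33 (adjusted p = 0.868). Tcl1 was at 8.65, 6.87 and 8.80 CPM in Dnmt3C KO and 8.29, 4.00 and 1.55 in Nrf1 cKO, so the first Nrf1 cKO library resembled WT in both genes. Of the 15 leading lower genes, 3 had every dKO and Nrf1 cKO library below every WT and Dnmt3C KO library, namely Tuba3a, Tuba3b and Ccnd1 (0.441% of the 15872 tested genes without a predicted or clone name). The choice of these genes fixed the order of dKO and WT.

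Of the 15 leading higher genes, 6 had every dKO and Dnmt3C KO library above every WT and Nrf1 cKO library (0.101% of the 15872), and 9 did not. The 6 were Gabrr1, Pkhd1, Apoh, Spag16, Zfp773 and BC051019, and here too the choice of genes fixed the order of dKO and WT. Gabrr1 was at 0.575, 0.559 and 0.540 CPM in Dnmt3C KO, beside 0.534, 0.742 and 0.581 in dKO, and at 0.121, 0.109 and 0 in Nrf1 cKO. Spag16 was at 3.88, 2.11 and 3.72 CPM in Dnmt3C KO and 0.152, 0.109 and 0.271 in Nrf1 cKO, and differed between dKO and Nrf1 cKO by 3.58 ± 0.58 on the log2 scale (SE; adjusted p = 0.169). Zfp773 was at 8.07, 5.26 and 5.69 CPM in Dnmt3C KO and 3.13, 3.08 and 4.53 in Nrf1 cKO. Pkhd1 was at 0.575, 0.356 and 0.191 CPM in Dnmt3C KO and at 0.121, 0 and 0 in Nrf1 cKO. Among the 9 others, Plbd1 was at 44.8, 73.9 and 85.1 CPM in Dnmt3C KO and 121, 23.2 and 158 in Nrf1 cKO. Prrg2 was at 19.9, 30.3 and 21.3 CPM in Dnmt3C KO and 33.8, 32.7 and 32.0 in Nrf1 cKO, the opposite order of the single mutants. Clec12b, at 92.2, 59.0 and 62.1 CPM in Dnmt3C KO and 26.8, 36.3 and 113 in Nrf1 cKO, was highest in a library of Nrf1 cKO. The comparisons with WT share the same 2 WT libraries.

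**Figure D3:**
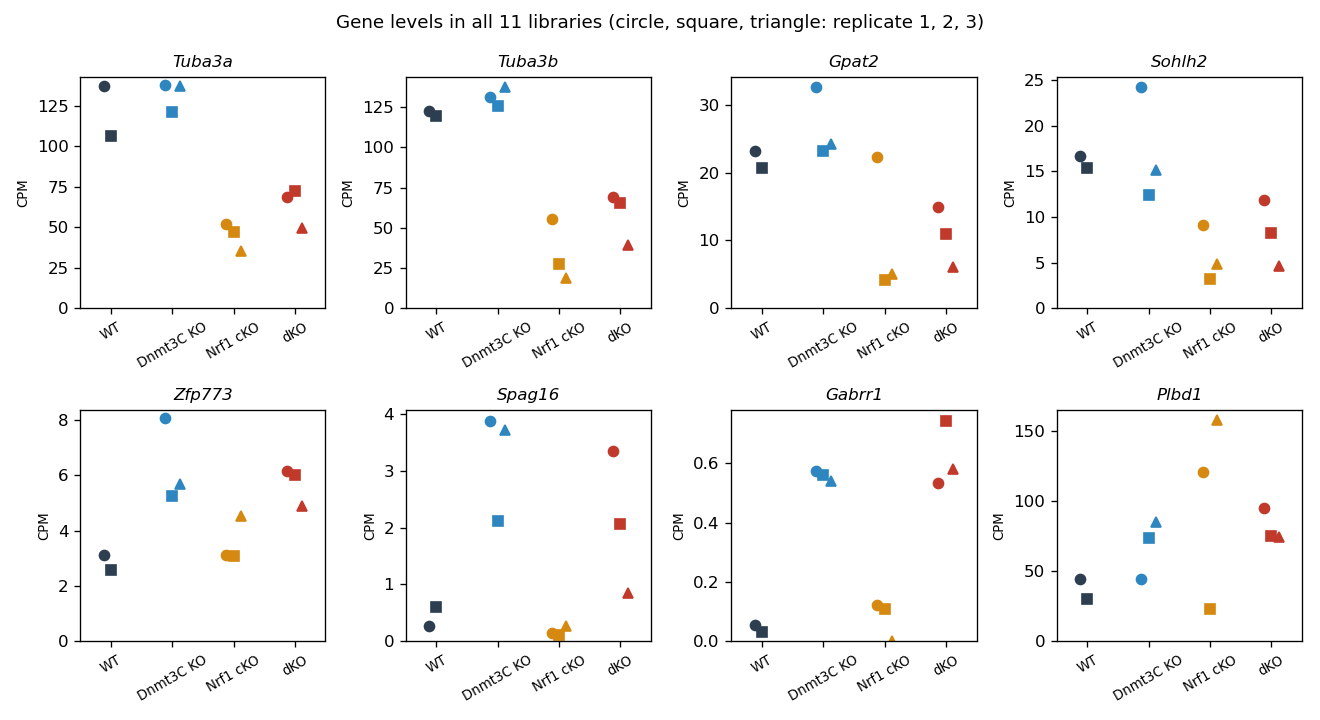
CPM of 8 genes in all 11 libraries by genotype, each point being 1 library and each vertical axis starting at 0. Tuba3a, Tuba3b and Sohlh2 are lowest in Nrf1 cKO and dKO, Gpat2 is also low there except in the first Nrf1 cKO library, Zfp773, Spag16 and Gabrr1 are highest in Dnmt3C KO and dKO, and Plbd1 varies widely within Nrf1 cKO.

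Gene groups for which NRF1 is best known had medians close to 0, and for 3 of the 4 lists leaving out one or the other WT library gave medians of opposite sign. The 89 nuclear genes of oxidative phosphorylation had a median of -0.02, with 1 gene higher (0.534% of all genes) and 1 lower (1.18%) at an unadjusted p under 0.05. Without WT replicate 1 the median was -0.21 with 79 of 89 below 0, and without WT replicate 2 it was 0.21 with 82 of 89 above 0. Cox7b2, a testis isoform of a cytochrome oxidase subunit, was at 1.22, 1.36 and 1.47 CPM in dKO and 2.66 and 2.90 in WT (log2 fold change -1.04 ± 0.33, SE), while Ndufs5, a subunit of complex I, was at 40.3, 29.5 and 26.7 CPM in dKO and 24.5 and 21.4 in WT. The lower gene is thus one of low level. The 77 genes of the mitochondrial ribosome had a median of 0.01 with 0 of 77 past that threshold in either direction by edgeR or DESeq2, and medians of -0.15 without WT replicate 1 and 0.17 without WT replicate 2. The 14 genes of mitochondrial transcription and NRF1 coactivators had a median of -0.04 and ranged from -0.31 to 0.24, and the median was -0.05 without WT replicate 1 and -0.04 without WT replicate 2. The 13 protein-coding genes of the mitochondrial genome had a median of -0.01, and the 1 lower gene, mt-Atp8, was at 208 CPM in WT replicate 2 and 36.9 in WT replicate 1. Their median was -0.40 without WT replicate 1 and 0.48 without WT replicate 2.

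Of 38 proteasome genes, 3 were lower at an unadjusted p under 0.05 (1.18% of all genes), and the median was -0.05. These were Psmb8, Psmb9 and Psmb10, the inducible subunits of the immunoproteasome. Psmb8 was at 3.14, 2.57 and 5.11 CPM in dKO and 3.17 and 23.3 in WT, and Psmb9 at 2.77, 1.39 and 2.69 CPM and 2.14 and 16.3 CPM. Without WT replicate 2 none of the 38 passed and the median was 0.13. Of 27 interferon response genes, 2 were lower (1.18% of all genes), with a median of -0.41, and without WT replicate 2 none of 28 passed and the median was 0.21, while without WT replicate 1, 11 of 28 were lower (2.04% of all genes in that fit) with a median of -0.87. Ifit3, an interferon-induced antiviral gene, was at 0.623, 0.837 and 1.22 CPM in dKO and 0.895 and 3.96 in WT, and Isg20, an interferon-induced exonuclease, at 0.707, 0.403 and 1.38 CPM and 0.922 and 3.63 CPM. WT replicate 2 alone was high for all 4 of these genes.

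Sertoli cell markers had higher values in dKO. Of 20, 19 were above 0 with a median of 0.30, 8 did not overlap between the groups (6.53% of all genes), and 0 passed an unadjusted p under 0.05 by edgeR in either direction, against 2 higher by DESeq2. With any 1 library left out, between 17 and 19 were above 0 and the median lay between 0.23 and 0.30. The list summed to 8203, 8543 and 8223 CPM in dKO and 6546 and 6855 in WT. Hsd17b1, an enzyme of steroid interconversion, was at 162, 242 and 211 CPM in dKO and 148 and 155 in WT, and Dhh, the hedgehog ligand of Sertoli cells, at 159, 187 and 180 CPM and 156 and 131 CPM. Amh, the hormone of immature Sertoli cells, was at 353, 827 and 401 CPM in dKO and 429 and 257 in WT, and Sox9, their defining transcription factor, at 108, 115 and 67.2 CPM and 97.3 and 45.2 CPM. Amh and Sox9 overlapped between the groups. The 1 Sertoli marker below 0, the homeobox gene Rhox5, was under 2 CPM in every library. Gdnf, the ligand of Ret, was at 33.2, 63.3 and 32.5 CPM in dKO and 33.2 and 28.5 in WT. Inhbb, an activin and inhibin subunit, had a log2 fold change of 0.44 ± 0.26 (SE), with overlap. It ran from 0.20 without dKO replicate 2 to 0.73 without WT replicate 1.

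The other somatic lists varied in direction. The median log2 fold change was 0.16 for 10 Leydig cell genes, -0.02 for 10 peritubular muscle cell genes, -0.10 for 12 endothelial genes and -0.05 for 12 macrophage genes, and 0 of these genes passed an unadjusted p under 0.05 by edgeR or DESeq2. Star, which carries cholesterol into mitochondria for steroid synthesis, was at 86.3, 87.5 and 156 CPM in dKO and 130 and 135 in WT. Cyp17a1, the steroid 17-hydroxylase, was at 172, 131 and 252 CPM in dKO and 176 and 385 in WT. Acta2, smooth muscle actin, was at 1018, 829 and 1015 CPM in dKO and 988 and 978 in WT. All 3 overlapped between the genotypes. The 4 tested fat cell genes had a median of 0.38, and 1 was higher at an unadjusted p under 0.05 (0.534% of all genes), Plin1, a lipid droplet protein, at 23.1, 29.7 and 26.96 CPM in dKO and 19.8 and 20.1 in WT. The 8 skeletal muscle genes and the 8 genes of epididymis and mesothelium had medians of -0.12 and -0.42, with 0 past that threshold by edgeR or DESeq2. Leaving out 1 library at a time changed the sign of the median for 6 of these 7 lists. The medians ran from -0.08 to 0.18 for Leydig cells, -0.14 to 0.26 for peritubular muscle cells, -0.25 to 0.15 for endothelium, -0.37 to 0.21 for macrophages, -0.21 to 0.05 for skeletal muscle, -0.97 to 0.16 for epididymis and mesothelium, and 0.07 to 0.46 for fat cells.

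**Figure D4:**
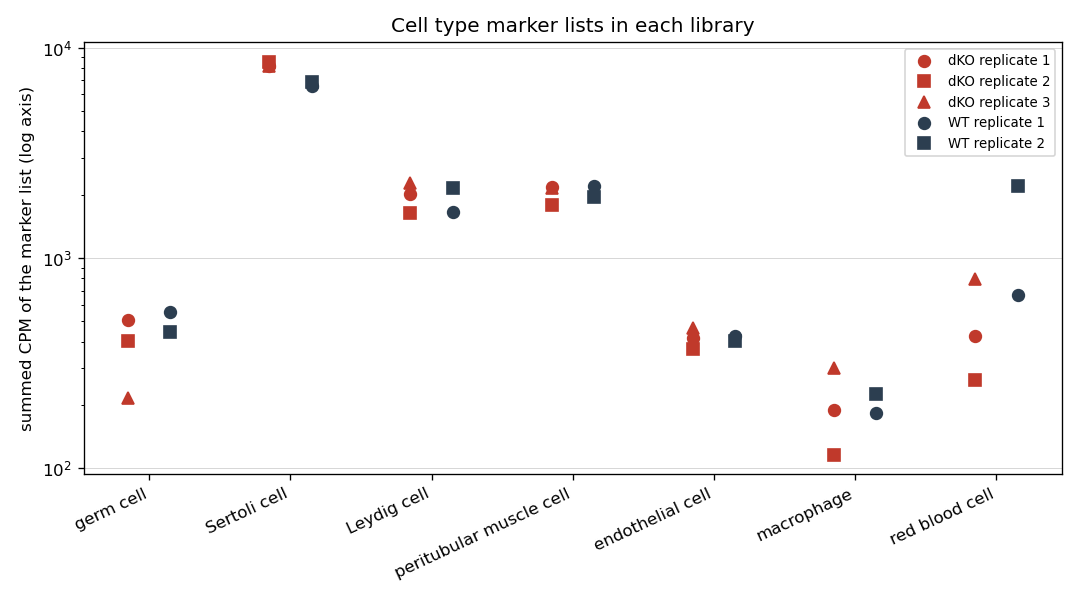
Summed CPM (log axis) of 7 cell type marker lists in each dKO library (red) and WT library (dark), with the symbol giving the replicate. The Sertoli cell sums are higher in all 3 dKO libraries, the germ cell sum is lowest in dKO replicate 3, and the red blood cell sum is highest in WT replicate 2.

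Among the remaining lists, the Rhox homeobox cluster on the X chromosome had a median of -0.76 over its 12 tested genes of 22 in the table, 10 of them below 0, 4 without overlap (6.34% of all genes) and 0 at an unadjusted p under 0.05 by edgeR or DESeq2. Without dKO replicate 1, all 11 tested genes were below 0 with a median of -0.96, and 4 were lower at that threshold (2.02% of all genes in that fit). Copies within the cluster are near identical and can share reads. The 20 genes of cholesterol synthesis were all below 0 with a median of -0.25, and without WT replicate 2 only 9 were, with a median of 0.05. Without WT replicate 1, 10 of the 20 were lower at an unadjusted p under 0.05 (2.04% of all genes in that fit) with a median of -0.47. The 1 lower gene (1.18% of all genes), Insig1, a sterol sensor of the endoplasmic reticulum, was at 57.3, 55.4 and 51.9 CPM in dKO and 60.3 and 91.0 in WT.

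The 22 genes of DNA and H3K9 methylation had a median of -0.03 with 1 lower at an unadjusted p under 0.05 (1.18% of all genes), Tet2, a 5-methylcytosine oxidase, at 40.4, 39.4 and 44.3 CPM in dKO and 49.3 and 58.3 in WT. With 1 library left out the median of this list ran from -0.12 to 0.04. By edgeR 0 of its genes were lower at that threshold without dKO replicate 1, 2 or 3. Of 27 imprinted genes, 2 were lower at that threshold (1.18% of all genes), and by edgeR 0 were without dKO replicate 2. The median was -0.14, and it ran from -0.20 without dKO replicate 3 to -0.02 without dKO replicate 1. Rtl1, a retrotransposon-derived imprinted gene, was at 0.764, 0.465 and 0.643 CPM in dKO and 1.33 and 1.18 in WT, and Airn, the antisense RNA that silences Igf2r, at 12.2, 8.64 and 11.8 CPM and 14.8 and 15.7 CPM. The 20 genes of the p53 response had a median of 0.18, with 15 above 0, and the 24 cell cycle genes a median of -0.03. With 1 library left out these medians ran from 0.10 to 0.29 and from -0.16 to 0.11. With all libraries kept, 0 genes of either list passed an unadjusted p under 0.05 by edgeR or DESeq2. Phlda3, a p53 target that restrains AKT, was at 43.0, 48.8 and 47.7 CPM in dKO and 38.7 and 35.8 in WT, without overlap. The 4 tested histone genes of 9 in the table had a median of 0.23, and none passed with all libraries kept. Their median ran from 0.05 without dKO replicate 3 to 0.54 without dKO replicate 1.

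**Figure D5:**
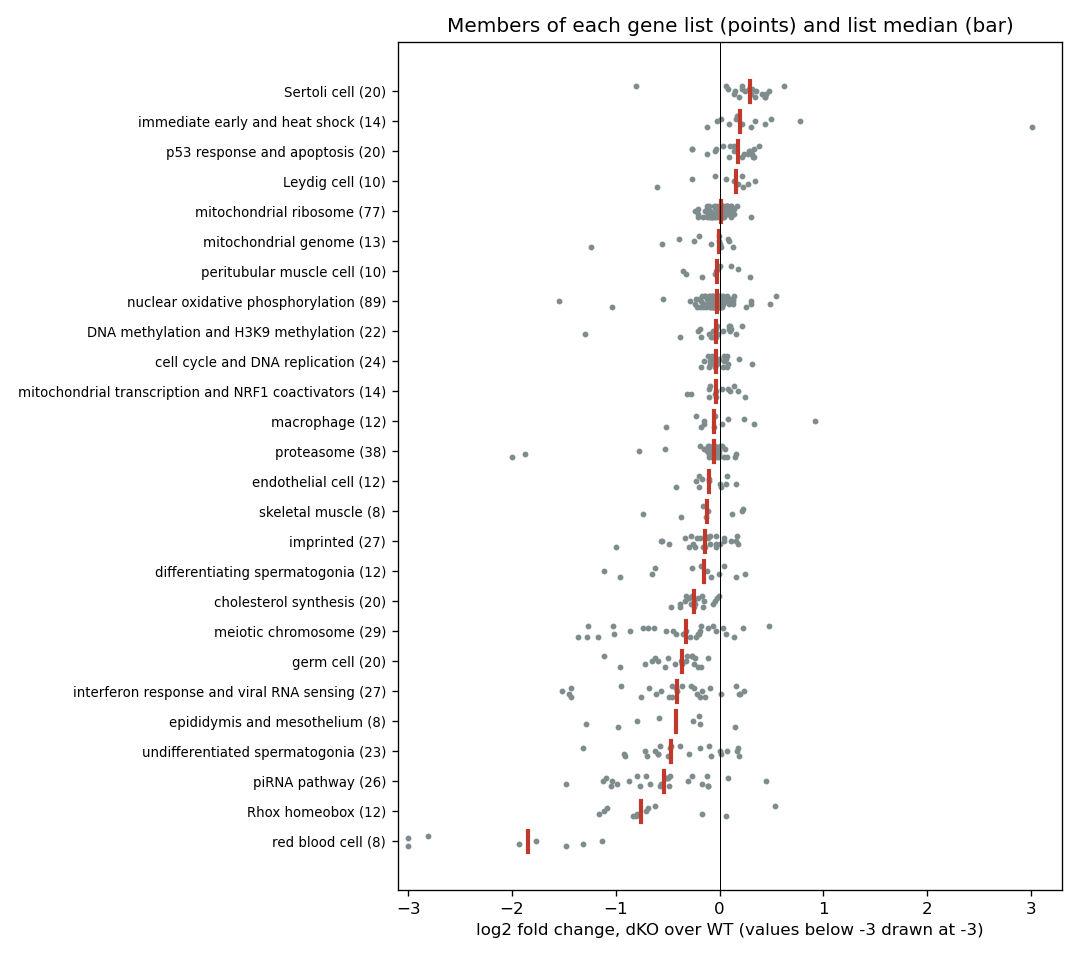
Log2 fold change, dKO over WT, of each tested member (points) of the 26 gene lists with at least 8 tested genes, ordered by list median (bar), with the number of members in brackets. The piRNA pathway, spermatogonial, germ cell and meiotic lists have medians below 0, the mitochondrial lists have medians near 0 and the Sertoli cell list has a median above 0.

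TE subfamilies in the same table give the context of these genes. Of 886 tested, 0 passed an adjusted p under 0.01 by edgeR and 3 did by DESeq2, and an unadjusted p under 0.05 was reached by 7 with higher values (0.79%) and 13 with lower values (1.47%). L1Md_A, a young LINE1 subfamily, was at 200, 361 and 319 CPM in dKO and 90.0 and 124 in WT, a log2 fold change of 1.46 ± 0.28 (SE). MMERVK10C-int, the internal part of an endogenous retrovirus, was at 305, 212 and 165 CPM in dKO and 84.4 and 82.2 in WT (log2 fold change 1.45 ± 0.26, SE). IAPEz-int, the internal part of the IAP retrovirus, was at 762, 353 and 448 CPM in dKO and 374 and 275 in WT, with overlap. For L1Md_A and MMERVK10C-int every dKO library was above both WT libraries, and among the dKO libraries replicate 1 was lowest for L1Md_A and replicate 3 for MMERVK10C-int.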

How the data were processed

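Poly-A RNA of whole testes was sequenced as stranded, paired-end libraries. The authors aligned reads with STAR 2.7.3a to GRCm38 and deposited raw counts per gene and TE subfamily, made by TEtranscripts in its multi-mapping mode with GENCODE M25. The fold changes and p-values of their DESeq2 1.44.0 comparison stand in the same table and were not used, nor was a TPM table of TE copies.

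The 3 dKO and 2 WT libraries were compared with edgeR 4.0.16 (R 4.3.3). Low rows were removed with filterByExpr, libraries were scaled with TMM, and the quasi-likelihood F test was adjusted over all rows tested (Benjamini-Hochberg), with calls at an adjusted p under 0.01. The SE was derived from the fold change and its F statistic. Intervals and the limit of 3 counts cover counting error only. Scripts were tested on simulated counts. Chi-square per degree of freedom was at least 27.3 between libraries, so none was a copy. Named genes were Nrf1, Dnmt3c, 15 genes of each direction with the smallest p, up to 4 genes of each list, defining markers and 3 TE subfamilies. Mael, Mov10l1, Piwil4 and the genes of alternatives were named after their values were seen. Members and gene lists were chosen with earlier results of these data known. Positions of genes are from GENCODE M21 (GRCm38) and promoters from RefSeq (GRCm38.p6), read with Python 3.11.15. Alternatives were DESeq2 size factors, the DESeq2 1.42.0 Wald test, no filter, an adjusted p under 0.05, a replicate block, leaving out each library, genes only, all 4 genotypes in a single fit and scaling to equal germ cell markers.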

Additional observations from a re-analysis of the deposited data

How the results depend on the processing

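With 0 genes called in either direction by edgeR, the counts of calls moved under these settings. Genes called higher numbered 1 with the DESeq2 Wald test (Plbd1), 5 with a replicate block (Spag16, BC051019, Gm15389, Gm47283 and Gm13301) and 1 when scaled to equal germ cell markers (Fosb). In the block fit dKO replicate 3 has no WT partner and does not inform the difference. Gm13301 had 0 and 112 counts in the WT libraries. Genes called lower numbered 7 with no filter on low counts, 15 with the replicate block, 2 when scaled to germ cell markers (Slc4a1 and Hbb-y) and between 0 and 1 when a library was left out (H2-Eb1, a class II histocompatibility gene, without WT replicate 1, where the lone WT sample is assumed to vary like dKO). The 7 genes called lower with no filter were Slc4a1, Hemgn, H2-Aa, Hbb-y, H2-Eb1, Hba-a2 and Hbb-bt. Each was highest in WT replicate 2, where Hemgn had 153 counts. TE subfamilies called higher numbered 3 with DESeq2, 3 with no filter and 1 with the block. At an unadjusted p under 0.05, leaving out a library gave between 81 and 678 higher genes and between 150 and 442 lower genes, both highest without WT replicate 1. No filter gave 241 higher and 491 lower, the block 378 lower and germ cell scaling 42 lower. Over the 2 pairs of same-numbered libraries, deviations from the group mean correlated at -0.0043 and -0.0131. With 2 WT libraries the WT deviations mirror each other, so these 2 values are not independent checks. A correlation over all genes does not show whether some genes share a litter or batch, and whether the replicate numbers mark shared litters was not tested. Scaling to germ cell markers moved the median of all genes from 0.01 to 0.62 (log2), and with it Ccnd1 to 0.010, Ccdc136 to 0.0078, Tet2 to 0.25, Tex19.1 to 0.010, Insig1 to 0.093, Airn to 0.15, Cyp17a1 to 0.081, Star to 0.51, Dnmt3c to 0.45 and Acta2 to 0.60. Leaving out 1 library gave a range that crossed 0 for 10 genes. It ran from -6.79 to 1.61 for Hbb-y, -4.33 to 0.35 for H2-Aa, -2.83 to 0.098 for Psmb9, -2.69 to 0.19 for Psmb8, -2.15 to 0.0011 for Ifit3, -2.01 to 0.49 for mt-Atp8, -1.06 to 0.080 for Cyp17a1 and -0.0068 to 1.09 for Sox9, each between the fits without WT replicate 1 and without WT replicate 2, and from -0.20 to 0.035 for Dnmt3c and -0.099 to 0.053 for Acta2. With the replicate block, Dnmt3c was at 0.030. The other 893 of 915 values over 77 named genes and subfamilies kept their direction. The causes were not tested. With 2 WT libraries, the spread within WT rests on a single difference, and genes at under 1 CPM rest on few reads.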
